A study of Mus musculus with 2 samples.

Results

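Macrophages of the mouse small intestine were examined for a subset of cells rich in transcripts of 4 genes, Thbs1, Plaur, Pgf and Vwa1. A cell was called a member when it held at least 3 UMIs (unique molecular identifiers, each marking 1 captured transcript end) of the 4 genes together and these made up at least 0.1% of its UMIs. Cells were kept if they showed 200 genes or more and no more than 10% of their UMIs came from mitochondrial genes, and 1020 of the 5628 kept cells were members. The Ccr2-knockout library held 818 of them among 2612 kept cells (31.3%, 95% Clopper-Pearson interval 29.5% to 33.1%). In the wild-type library 202 of 3016 kept cells qualified (6.70%, 5.83% to 7.65%).

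Each genotype was a single droplet library (10x Genomics 3′ v2 chemistry) made from 3 to 4 pooled intestines. The wild-type pool came from C57BL/6J males bought from Janvier. The knockout pool came from CCR2-/- mice of JAX strain #:004999, bred in-house and with no sex given in the labels, and neither group has an age there. After digestion with Liberase TL, live CD45+ cells were sorted that carried CD64, CD11b and MHC class II and lacked CD3, TCRb, B220, SiglecF, Ly6G and Ly6C. Ccr2, genotype, breeding source and library therefore cannot be told apart, no value has a replicate and no test was possible. The intervals given are for counting error alone.

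The wild-type barcodes carried 2 suffixes, and the cells of each suffix are called a lane here. The deposited totals were 20766579 UMIs in 3054 wild-type cells and 7506405 UMIs in 2774 knockout cells, and the medians over kept cells were 6129 and 2439 UMIs. The libraries shared 6 barcodes, and no member barcode occurred in both. Ccr2 was read in 26.2% of wild-type members and in 0.856% of knockout members.

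Thbs1 encodes thrombospondin-1, a secreted matrix protein that binds CD36 and CD47 and can release active TGF-beta from its latent complex. Plaur encodes the urokinase receptor, which concentrates plasminogen activation at the cell surface. Pgf encodes placental growth factor, a ligand of the VEGF receptor Flt1, and Vwa1 encodes an extracellular matrix protein of basement membranes. Macrophages of the gut wall clear dying cells, present antigen and support repair. In adult mice many of them are replaced from blood monocytes, which use Ccr2 to leave the bone marrow, while longer-lived macrophages carrying Timd4 and Cd4, and scavenging cells near vessels carrying Cd163, Lyve1 or F13a1, depend less on that supply.

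The 4 genes chose the members, so their levels are a description. Levels are given as CPM, the summed UMIs of a gene over a set of cells per 1000000 of all their UMIs. Over all kept cells Thbs1 (ENSMUSG00000040152, GRCm38 chr2:118111876-118127133, plus strand) stood at 401 CPM in the knockout and 117 CPM in the wild type. Plaur (ENSMUSG00000046223, chr7:24462484-24475968, plus strand) stood at 198 and 43.5 CPM, and Pgf (ENSMUSG00000004791, chr12:85166635-85177790, minus strand) at 137 and 40.0 CPM. The widest gap, taken as a ratio, was that of Vwa1 (ENSMUSG00000042116, chr4:155768149-155774698, minus strand), with 257 and 25.1 CPM. UMIs mark 3′ ends, so a level is not raised by the length of a transcript.

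Members of each genotype carried the genes in different proportions. Thbs1 made up 68.0% of the 1653 UMIs of the 4 genes in wild-type members and was read in 97.5% of these cells (94.3% to 99.2%). In knockout members it made up 44.7% of 5403 UMIs and was read in 82.6% (79.9% to 85.2%). Vwa1 gave 21.4% of these UMIs in knockout members and 3.51% in wild-type members. It was read in 63.6% of the knockout members (60.2% to 66.9%) and in 22.8% of the wild-type members (17.2% to 29.2%). The summed Thbs1 level of members was similar, at 973 CPM in the knockout and 1136 CPM in the wild type, whereas Vwa1 stood at 466 and 58.6 CPM.

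**Figure D1:**
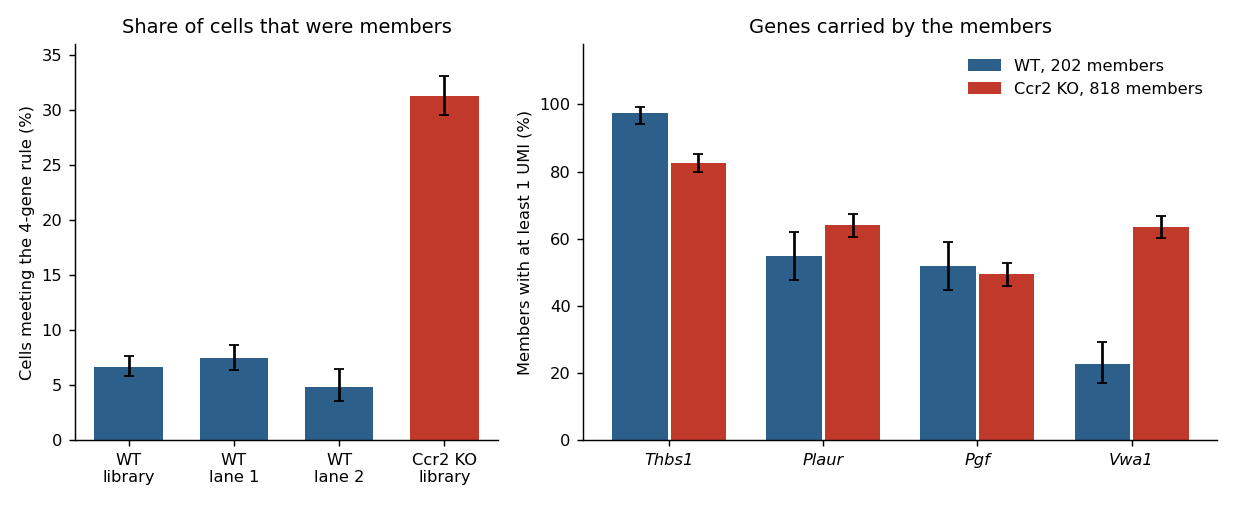
Left, share of kept cells (percent) that met the 4-gene rule in the wild-type library, its 2 lanes and the Ccr2-knockout library. Right, share of members (percent) with at least 1 UMI of each gene of the rule; bars are values and lines are 95% Clopper-Pearson intervals, which cover counting error only. Members made up 31.3% of knockout cells and 6.70% of wild-type cells, and the share with a Vwa1 UMI was 63.6% and 22.8%.

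All 4 genes were read together in 133 knockout members and 15 wild-type members. In 91 knockout and 41 wild-type members only 1 of the genes was read. Wild-type lane 1 held 158 members among 2109 cells (7.49%) and lane 2 held 44 among 907 (4.85%). Just inside the limit lay 132 knockout and 12 wild-type members with exactly 3 UMIs. Just outside lay 321 knockout and 314 wild-type cells with 2 UMIs, and another 176 and 389 cells that had 3 or more UMIs but less than 0.1%. After thinning of every cell to 1000 UMIs, which left out 196 knockout cells and 1 wild-type cell, 343 of 2416 knockout cells (14.2%) and 61 of 3015 wild-type cells (2.02%) still had 3 or more UMIs of the genes.

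Promoter sequence was available for some of the genes described here. The RefSeq table of GRCm38.p6 holds windows for Plaur, Pgf, Tnfaip2, Wnt4 and Il1r2, and of the 250 bases before the start of each, Plaur and Il1r2 had a match to 1 of 4 motifs searched on both strands (AP-1, TGANTCA; CRE, TGACGTCA; E-box, CACGTG; and the NF-kB motif). Plaur and Il1r2 are shown because of these matches. Plaur is a gene of the rule, and Il1r2 was at least 2-fold higher in members of both libraries. Only bases outside annotated exons are printed, 5′ to 3′ on the strand of the gene, with the matches in capitals.
Plaur, chr7:24462233-24462482, plus strand: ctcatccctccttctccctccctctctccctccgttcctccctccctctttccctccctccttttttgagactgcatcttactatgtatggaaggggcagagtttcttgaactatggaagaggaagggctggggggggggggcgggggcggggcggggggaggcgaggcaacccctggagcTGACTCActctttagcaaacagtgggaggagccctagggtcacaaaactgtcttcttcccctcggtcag
Il1r2, chr1:40085852-40085984, plus strand: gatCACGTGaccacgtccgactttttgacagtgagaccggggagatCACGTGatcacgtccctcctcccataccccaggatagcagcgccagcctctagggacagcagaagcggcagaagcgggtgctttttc
The AP-1 match of Plaur began 69 bases before the start, and the E-box matches of Il1r2 began 238 and 195 bases before it. The other windows had no match, which says only that these letters were not in them.

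Members kept the transcript profile of macrophages. At least 5 UMIs of the complement genes C1qa, C1qb and C1qc together were found in 97.5% of wild-type members and 93.6% of knockout members. Csf1r, the receptor for the macrophage growth factor CSF1, was read in 96.5% and 94.7%. No UMI of Csf1r, Adgre1 or Fcgr1 was found in 3 wild-type members (1.49%) and 33 knockout members (4.03%).

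The level of the genes outside macrophages differed by gene. In 16 knockout cells with T or B cell transcripts and no UMI of the 3 macrophage receptor genes, Vwa1 stood at 309 CPM (160 to 541), against 249 CPM (238 to 261) in cells with such a receptor UMI. The median depths were 2213.5 and 2511.5 UMIs. The C1q genes together stood at 645 CPM in these lymphoid cells against 8669 CPM. Plaur was at 181 CPM (72.6 to 372) in the lymphoid cells against 202 CPM, while Thbs1 was lower, at 77.4 CPM (16.0 to 226) against 413 CPM. Pgf stood at 25.8 CPM (0.653 to 144) against 140 CPM. For Vwa1 and Plaur the intervals of these 16 cells thus included the level of the macrophages, as did that for Pgf, which rests on 1 UMI, and for Thbs1 they did not. How far free RNA or 2 cells in 1 droplet contribute was not tested. In 23 knockout cells with fibroblast or endothelial transcripts Vwa1 stood at 562 CPM and Adamdec1 at 2346 CPM. Of these 23 cells 7 met the rule for members, as did 2 of the 16 lymphoid cells. The 9 lymphoid cells of the wild type held no UMI of Thbs1, Plaur or Pgf, which allows each up to 73.8 CPM, and 3 of Vwa1.

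To read each gene of the rule in cells picked without it, members were chosen anew by the other 3 genes. They were compared with cells that held none of those 3, matched on depth. Thbs1 then stood at 708 CPM (662 to 756) in the knockout against 204 CPM (180 to 231) in the matched cells, a log2 ratio of 1.79. The wild-type levels were 863 CPM (715 to 1033) against 116 CPM (65.2 to 192), a log2 ratio of 2.88 over 33 pairs of cells. The log2 ratio of Plaur was 1.78 in the knockout and 3.41 in the wild type, and that of Pgf was 2.54 and 2.79. For Vwa1 it was 0.73 in both libraries, with intervals of 0.55 to 0.92 in the knockout and −0.08 to 1.62 in the wild type. Thbs1, Plaur and Pgf were thus each higher in the cells chosen by the other genes, and the wild-type interval for Vwa1 included 0. Every cell chosen in this way was also a member under the full rule. The genes of the rule were picked with earlier results of these data known. These ratios therefore describe the set and cannot test whether its genes go together.

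**Figure D2:**
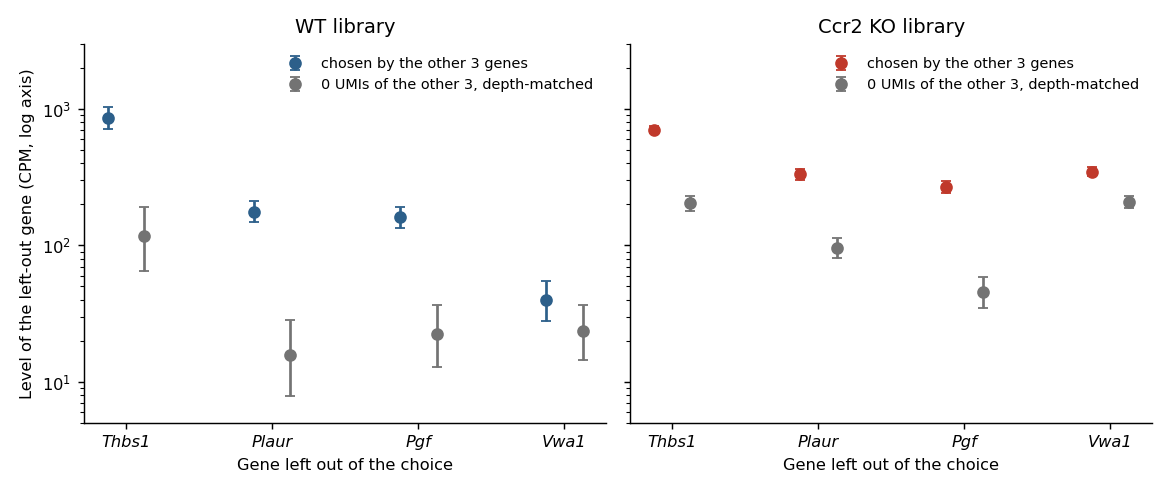
Level (CPM, log axis) of each gene of the rule in cells chosen by the other 3 genes (coloured) and in depth-matched cells with 0 UMIs of those 3 (grey), for the wild-type and knockout libraries; lines are 95% Poisson intervals. Thbs1 stood at 863 against 116 CPM in the wild type and 708 against 204 CPM in the knockout, and the distance was shortest for Vwa1.

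The main comparison set members beside cells of the same library with 0 UMIs of the 4 genes, paired within 0.1 log2 units of total UMIs. It asks which other transcripts go with the 4 genes. In the knockout 505 members found a partner (medians 2230 and 2197 UMIs), and 313 members, with a median of 3867 UMIs, did not. In the wild type all 202 members were paired within their lane (medians 4428.5 and 4156.5 UMIs). Median mitochondrial shares were 4.37% in members and 3.88% in partners of the knockout, and 4.02% and 3.40% in the wild type.

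Of 5452 genes with a mean of at least 20 CPM in the knockout, 283 were at least 2-fold higher in members (5.19%) and 227 at least 2-fold lower (4.16%). Of 5148 such genes in the wild type, 306 were at least 2-fold higher (5.94%) and 139 lower (2.70%). These are counts past a fold, with no test. Log2 ratios were taken after adding 1 CPM to both levels, which understates the change of low genes, and the 4 genes of the rule were left out.

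Many genes passed 2-fold in both libraries. Among 4765 genes compared in both, 134 were at least 2-fold higher in each, or 57.5% of the knockout's 233 and 45.7% of the wild type's 293. Of all genes compared, 6.15% were higher in the wild type and 4.89% in the knockout. At least 2-fold lower in each were 60 genes, or 39.0% of the knockout's 154 and 55.6% of the wild type's 108. Across these genes, which are not independent replicates, the log2 ratios of the 2 libraries had a Pearson correlation of 0.65 and a Spearman correlation of 0.55. Past 2-fold in opposite directions were Fabp2, higher in knockout members and lower in wild-type members, and Dusp2, Map4k4 and Phlda1, the other way round. Of these, Dusp2, Map4k4 and Phlda1 were named after their values were seen. The wild-type ratio of Fabp2 was −1.10 with 178 of 215 partner UMIs in 1 cell, and lay above 0 under 6 alternatives, from 0.30 without matching to 2.39 at a matching distance of 0.05.

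**Figure D3:**
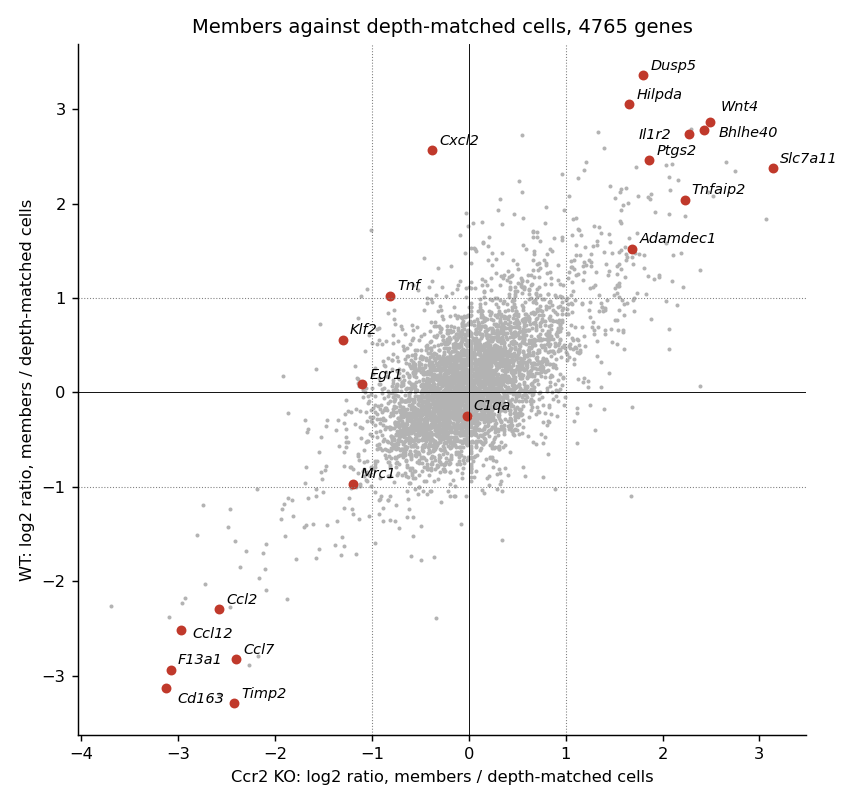
Log2 ratio of members to depth-matched cells in the knockout (horizontal) and wild-type (vertical) libraries; each point is 1 of 4765 genes, dotted lines mark a 2-fold difference, and red points are named. Wnt4, Bhlhe40 and Il1r2 lie at the upper right and Cd163, F13a1 and Timp2 at the lower left, while Cxcl2 is above 0 in the wild type and below 0 in the knockout.

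Tnfaip2 and Adamdec1 had been named as markers of these cells with earlier results of these data known, so their levels are a description. Tnfaip2, a TNF-induced gene linked to membrane protrusions, stood at 1992 CPM in knockout members against 425 CPM in their partners, and at 1006 against 244 CPM in the wild type. Its log2 ratios were 2.23 (2.09 to 2.37) and 2.04 (1.83 to 2.26), and 2.06 and 1.95 in the wild-type lanes. Adamdec1, a metalloprotease-like gene known from gut macrophages, stood at 1727 against 536 CPM in the knockout and 850 against 295 CPM in the wild type (log2 ratios 1.69 and 1.52). Members lay above partners in both libraries and both lanes for both genes. At 1000 UMIs per cell Tnfaip2 was read in 68.9% of the 483 knockout members that were deep enough against 26.3% of partners (unthinned 87.4% and 45.5%), and in none of the 16 lymphoid cells (exact upper limit 20.6%, unthinned 6.25%). The thinned shares of the wild type were 54.0% and 16.3%, and the unthinned value of the members was 87.6%.

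Wnt4, a secreted WNT ligand, stood at 470 CPM (432 to 510) in knockout members against 83.0 CPM (67.8 to 101) in partners. Wild-type members stood at 361 CPM (324 to 400) against 48.6 CPM, with UMIs in 117 of 202 members and 24 of 202 partners. The log2 ratios were 2.49 and 2.87. Il1r2, the decoy receptor that binds interleukin-1 without signalling, stood at 332 against 67.7 CPM in the knockout and 215 against 31.3 CPM in the wild type (log2 ratios 2.28 and 2.74). Il1b, the interleukin-1 that it captures, was also higher, at 3197 against 1516 CPM and 2980 against 834 CPM. Ptgs2, the inducible enzyme of prostaglandin synthesis, stood at 1170 against 322 CPM and 621 against 112 CPM.

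Bhlhe40, a transcriptional repressor, stood at 221 against 40.3 CPM in the knockout and 132 against 18.4 CPM in the wild type (log2 ratios 2.43 and 2.78). Slc7a11, which imports cystine for glutathione synthesis, stood at 57.4 against 5.64 CPM and 43.4 against 7.56 CPM. Abcb1a, a drug efflux pump, stood at 71.4 against 10.5 CPM and 45.5 against 7.56 CPM. The non-classical class I gene H2-M2 stood at 174 against 30.6 CPM and 116 against 25.9 CPM, and the tRNA synthetase gene Eprs, with log2 ratios of 2.52 and 2.08, at 292 CPM in knockout members and 264 CPM in wild-type members. Hilpda, a lipid droplet gene, had log2 ratios of 1.65 in the knockout and 3.05 in the wild type. Dusp5, a phosphatase that acts on ERK, had 1.80 and 3.36. In each of these 7 genes the members were higher in both libraries, and the lane values of the wild type ranged from 1.16 (Slc7a11, lane 2) to 5.36 (Dusp5, lane 2).

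Some of the highest ratios could be measured in 1 library only. Ifitm1, an interferon-inducible membrane gene, stood at 156 CPM in wild-type members against 11.9 CPM in partners, and at 13.9 against 14.5 CPM in the knockout. Its 154 wild-type UMIs lay in 31 members, with 30 in the highest cell. Nr4a3, an inducible nuclear receptor, stood at 52.5 against 8.06 CPM in the knockout, and Cd300lf, an inhibitory receptor of myeloid cells, at 68.9 against 11.3 CPM. Both had a mean below 20 CPM in the wild type. Whether these genes differ between the libraries was not tested.

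Among the gene lists, those of other cell types apart, scavenger and perivascular genes were the lowest in members. Of the 12 genes of a resident and perivascular list, 10 could be measured in the knockout and 8 of these were at least 2-fold lower (background 4.16%), with a list median of −2.11 on the log2 scale against −0.03 over all genes. In the wild type 4 of 8 measured genes were at least 2-fold lower (background 2.70%), with a median of −1.26 against 0.04. Cd163, the haemoglobin scavenger receptor, stood at 33.6 CPM (log2 ratio −3.12, interval −3.66 to −2.69) in knockout members against 301 CPM in partners, and at 9.09 against 87.5 CPM in the wild type (−3.13, −4.45 to −2.27). It was read in 29 of 505 knockout members and 189 of their partners. At 1000 UMIs per cell the shares with a Cd163 UMI were 3.73% and 25.3% in the knockout (unthinned 5.80% and 38.7%) and 0.990% and 5.94% in the wild type (unthinned 3.47% and 17.3%). F13a1, a clotting factor subunit of tissue macrophages, stood at 12.3 against 111 CPM and 5.05 against 45.4 CPM, the last from 5 and 42 UMIs. Members were the low group for both genes in both libraries.

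The rest of the list was not uniform. Fcrls had log2 ratios of −2.47 and −2.27, Pf4 of −1.90 and −1.52, Mrc1, the mannose receptor, of −1.20 and −0.97. Gas6, which bridges dying cells to phagocytes, stood at 150 against 337 CPM and 67.7 against 136 CPM. Timd4 and Cd4 had ratios above 0. Timd4, a receptor for phosphatidylserine on dying cells, stood at 195 against 140 CPM in the knockout (interval of the log2 ratio 0.19 to 0.77) and 63.7 against 45.4 CPM in the wild type (−0.10 to 1.09, with −0.09 as the ratio of lane 2). Cd4 stood at 279 against 167 CPM and 169 against 91.8 CPM.

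Chemokines that attract monocytes were also lower in members of both libraries. Ccl2 stood at 221 CPM in knockout members against 1322 CPM in partners, and at 44.5 against 222 CPM in the wild type (log2 ratios −2.58 and −2.30). Ccl7 stood at 429 against 2274 CPM and 46.5 against 336 CPM, and Ccl12 at 134 against 1052 CPM and 86.9 against 503 CPM. Ccl8, of the same gene cluster, had log2 ratios of −1.51 and −0.92, with lane values of −1.26 and 0.93 in the wild type. Ccl9 had ratios of −3.09 and −2.38. Ccl5 had −3.69 and −2.27, but 1 partner cell held 85 of its 146 UMIs in the knockout and another 52 of 80 in the wild type.

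Cd36, a scavenger receptor and a receptor of thrombospondin-1, stood at 35.3 against 275 CPM in the knockout and 16.2 against 76.7 CPM in the wild type (log2 ratios −2.93 and −2.18). Timp2, an inhibitor of matrix metalloproteases, stood at 27.1 against 149 CPM and 5.05 against 58.3 CPM. Abca1, the cholesterol exporter, had log2 ratios of −1.81 and −1.31. In the knockout Trem2, a lipid-sensing receptor, stood at 7.38 against 35.5 CPM.

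**Figure D4:**
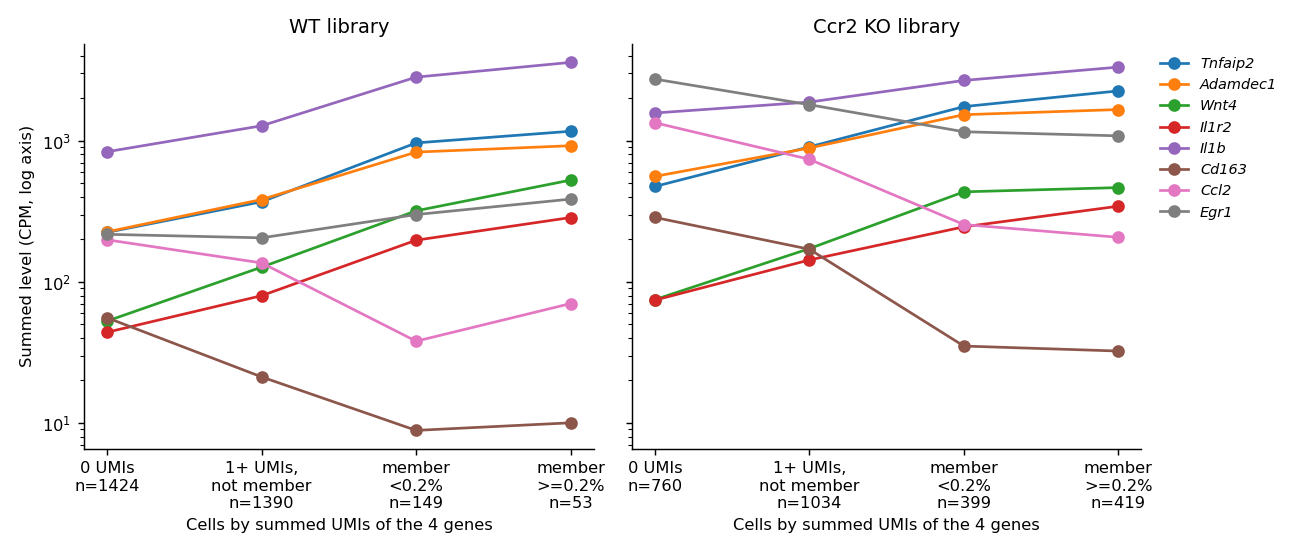
Summed level (CPM, log axis) of 8 genes in cells with 0 UMIs of the 4 genes, cells with at least 1 UMI that were not members, members with less than 0.2% and members with 0.2% or more of their UMIs from the 4 genes, for each library, without matching on depth. Tnfaip2, Wnt4 and Il1r2 climb and Cd163 and Ccl2 drop between the first and the third class in both libraries.

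For Tnfaip2, Wnt4 and Cd163, cells that fell short of the rule lay between cells with none of the genes and members. Not every gene did so. Egr1 in the wild type stood at 217 CPM with none, 205 CPM below the rule and 300 CPM in members with less than 0.2%. Without matching on depth, Tnfaip2 went from 474 CPM in the 760 knockout cells with none of the genes to 906 CPM in the 1034 cells below the rule, 1746 CPM in the 399 members with less than 0.2% and 2256 CPM in the 419 members with more. In the wild type the same steps were 224, 370, 966 and 1168 CPM. Cd163 went from 286 to 170, 35.1 and 32.3 CPM in the knockout and from 55.6 to 21.2, 8.86 and 10.0 CPM in the wild type. Between the 2 classes of members Cd163 differed little, whereas Tnfaip2 and Wnt4 (435 and 466 CPM in the knockout, 319 and 526 CPM in the wild type) were highest in the last class. Median depths of the 4 classes were 1619.5, 2750.5, 3376 and 2364 UMIs in the knockout, and 5208.5, 7527.5, 4896 and 3116 UMIs in the wild type.

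Members that carried Thbs1 alone differed in part from those with at least 3 of the 4 genes. There were 39 of the former in the wild type (19.3% of members) and 57 in the knockout (6.97%), against 81 and 446 of the latter. In the wild type Tnfaip2 stood at 645 CPM in members with Thbs1 alone and 1130 CPM in members with at least 3 genes, and Ccr2 at 454 and 83.9 CPM. Knockout levels of Tnfaip2 were 2240 and 2100 CPM. Ccl2 was higher with Thbs1 alone in both libraries, at 128 against 21.5 CPM in the wild type and 677 against 198 CPM in the knockout. Cd163 was higher with Thbs1 alone in the knockout, at 128 against 20.9 CPM. Its wild-type levels, 28.4 and 8.61 CPM, rest on few UMIs, as all 202 members together held 9. Median depths were 3484 and 5625 UMIs in the wild type and 2081 and 3392 UMIs in the knockout, and their part in these differences was not tested.

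Genes that work with the 4 genes in their own pathways were read in 3 lists, beside shares over all genes of 5.19% higher and 4.16% lower in the knockout and 5.94% and 2.70% in the wild type. Of 12 plasminogen activation genes 6 were measured in each library, with Itgb2 past 2-fold higher in the knockout and S100a10 and Anxa2 past 2-fold lower in the wild type. Plau, the urokinase that Plaur binds, stood at 60.7 against 84.6 CPM in knockout members. Of 15 thrombospondin receptor and TGF-beta genes 13 were measured, and the medians were 0.40 and 0.42. Smad7, a feedback inhibitor induced by TGF-beta, was higher in both (log2 ratios 1.68 and 1.44), Skil had 0.40 and 1.19, Tgfb1 0.73 and 0.91, and Cd36 was the lowest. The TGF-beta receptor genes Tgfbr1 and Tgfbr2 had 0.63 and −0.83 in the knockout and 0.42 and −0.11 in the wild type. Of the 13 genes, 5 were below 0 in the knockout and 4 in the wild type. Of 17 VEGF family and other growth factor genes 6 and 5 were measured, with medians of −0.70 and −0.38, and 3 of 6 were past 2-fold lower in the knockout and 1 of 5 in the wild type. The 3 were Nrp1, its relative Nrp2 (15.6 against 54.8 CPM) and Igf1, a growth factor (94.3 against 228 CPM). Nrp1, a coreceptor for VEGF family ligands including Pgf, stood at 130 against 272 CPM and 101 against 146 CPM.

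Matrix protease genes split by member. Mmp14, a membrane-bound metalloprotease, stood at 373 against 129 CPM in the knockout and 371 against 154 CPM in the wild type (log2 ratios 1.53 and 1.26). Mmp13, a collagenase, stood at 1173 against 957 CPM and 640 against 320 CPM, and Mmp9, a gelatinase, had log2 ratios of −0.45 and 0.27. Timp2 was given above, and 2 of 12 measured genes of the list were past 2-fold higher (background 5.19%) and 1 lower (4.16%) in the knockout, and 2 (5.94%) and 1 (2.70%) of 11 in the wild type. The higher genes of both libraries included Adamdec1, a marker named with earlier results of these data known, so its place in these counts is a description.

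Lysosome and lipid droplet genes were mixed. Acp5, the tartrate-resistant acid phosphatase, stood at 764 against 257 CPM and 917 against 370 CPM, and Plin2, which coats lipid droplets, at 442 against 193 CPM and 328 against 135 CPM. Cd9 had log2 ratios of 1.37 and 0.90 and Npl of 0.96 and 1.61. Ctsb and Npc2 differed by less than 0.22 in either library. Of 15 measured genes 3 were past 2-fold higher (background 5.19%) and 3 lower (4.16%) in the knockout, and 3 (5.94%) and 1 (2.70%) of 14 in the wild type, with list medians of 0.50 and 0.23. Hypoxia and glycolysis genes had medians of 0.36 and 0.30, and none of 9 passed 2-fold. Hk2, a hexokinase, had log2 ratios of 0.87 in each.

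The interferon list had 2 of 9 measured genes past 2-fold higher in the knockout (background 5.19%) and 3 of 9 in the wild type (5.94%), with medians of 0.39 and 0.58. Isg15, a ubiquitin-like interferon-induced protein, stood at 854 against 201 CPM and 635 against 143 CPM (log2 ratios 2.08 and 2.15), and Rsad2, an antiviral enzyme, at 184 against 83.8 CPM and 156 against 31.3 CPM. For Rsad2, 1 knockout member held 24 of 224 UMIs and 1 wild-type member 49 of 154. Its knockout log2 ratio of 1.12 ranged from 0.44 (matching distance of 0.05) to 1.24 (doublets removed) under the alternatives. The wild-type lanes had 2.72 and 0.58. Ifit1, Ifit3 and Irf7, which respond to the same signal, had log2 ratios between 0.24 and 0.58 in both libraries.

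General macrophage genes differed little. None of the 15 genes of the macrophage list passed 2-fold in either library, and the medians were −0.12 and −0.11. Csf1r (log2 ratios 0.50 and 0.69) was higher in members, and Adgre1, which encodes F4/80, was lower (−0.74 and −0.45). MHC class II genes had medians of 0.08 and −0.16, none past 2-fold. Cell cycle genes were few at this level, with 2 of 3 measured genes at least 2-fold lower in knockout members (background 4.16%) and 2 of 4 in wild-type members (2.70%). Stmn1, which regulates microtubules and marks dividing cells, stood at 10.7 against 51.6 CPM and 9.09 against 69.1 CPM. A single partner cell held 16 of its 64 UMIs in the knockout and 24 of 64 in the wild type. For Mki67, the other wild-type gene 2-fold lower, 1 partner cell held 16 of 26 UMIs. Monocyte genes were read mainly in the wild type, where 3 of 7 measured genes were at least 2-fold lower in members (background 2.70%) and the median was −0.96. Of the 3, S100a4 had 23 of 40 partner UMIs in 1 cell, Lsp1 22 of 84 and Ly6a 4 of 47. Ccr2 itself stood at 185 CPM in wild-type members and 329 CPM in partners, and was read in 26.2% and 42.6% of them.

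**Figure D5:**
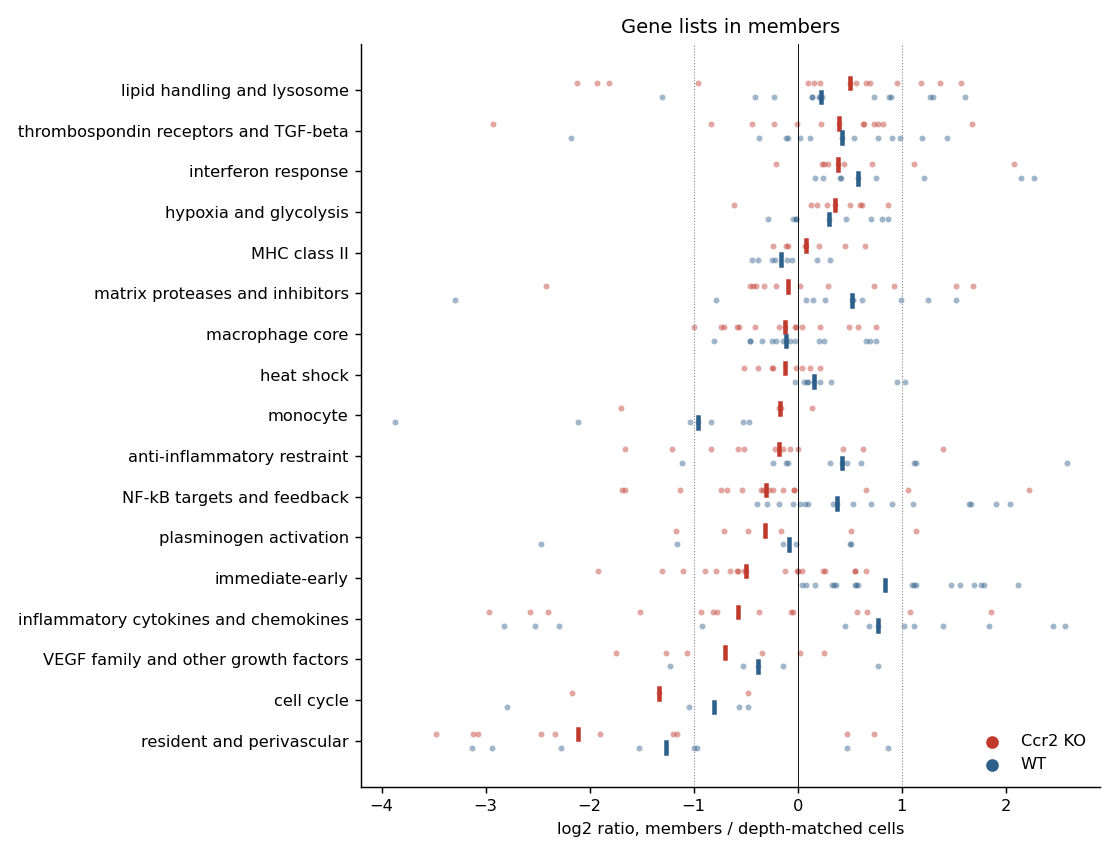
Log2 ratio of members to depth-matched cells for the genes of 17 lists in the knockout (red) and wild-type (blue) libraries; each point is a gene with a mean of at least 20 CPM, thick bars are list medians and dotted lines mark 2-fold. The resident and perivascular list is lowest in both, and the medians of the immediate-early and cytokine lists lie below 0 in the knockout and above 0 in the wild type.

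Immediate-early genes, which many stimuli switch on within minutes, had list medians on opposite sides of 0 in the libraries. Among 18 measured in the wild type, 9 were at least 2-fold higher in members (background 5.94%), all 18 had ratios above 0, and the median was 0.84. In lane 2 alone Egr1 (−0.24), Ier2 (−0.31) and Egr2 (−0.65) were below 0, as were Klf2 (−1.02) and Egr1 (−0.85) when members were chosen without Thbs1 and Myc (−0.66) when chosen by 5 UMIs and 0.2%. In the knockout none of 19 was 2-fold higher, 3 were 2-fold lower (background 4.16%), and the median was −0.50. Of the 19, 7 were above 0 there too, among them Btg2 (0.66), Fosb (0.55), Nr4a1 (0.55) and Junb (0.24). Fos stood at 3557 against 1659 CPM in the wild type and at 6185 against 6742 CPM in the knockout. Egr1 stood at 317 against 299 CPM and 1205 against 2579 CPM, and Klf2 at 367 against 248 CPM and 621 against 1530 CPM. Both classes of knockout cells were above both classes of wild-type cells for these 3 genes, and the partners differed more between the libraries than the members did.

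The medians of inflammatory cytokine genes lay on opposite sides too, while single genes did not all do so. The wild type had a median of 0.77, with 6 of 13 genes past 2-fold higher (background 5.94%) and 3 lower (2.70%). The knockout had −0.57, with 2 of 14 higher (5.19%) and 4 lower (4.16%), and Ccl2, Ccl7 and Ccl12 of this list were lower in both. Cxcl2, a neutrophil attractant, stood at 1093 against 184 CPM in the wild type and at 1428 against 1852 CPM in the knockout. Tnf stood at 51.5 against 24.8 CPM and at 95.1 against 168 CPM, and Ccl4 at 1391 against 813 CPM and 3697 against 6324 CPM. Il1b and Ptgs2, given above, were higher in members of both. Of the NF-kB list 5 of 17 genes were past 2-fold higher (background 5.94%) and none lower in the wild type. In the knockout 2 of 16 were higher (5.19%) and 3 lower (4.16%), and Nfkbia, the feedback inhibitor of NF-kB, stood at 372 against 1198 CPM. The higher NF-kB genes of both libraries included Tnfaip2, a marker named with earlier results of these data known, so its place in these counts is a description. The difference between libraries in these lists was not tested.

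Genes that restrain inflammation were mixed. The list medians were −0.18 in the knockout and 0.42 in the wild type, with 1 of 12 (background 5.19%) and 3 of 11 (5.94%) measured genes past 2-fold higher and 2 (4.16%) and 1 (2.70%) lower. Nfil3, a transcription factor induced by cytokines, stood at 52.5 against 19.3 CPM in the knockout and 96.0 against 15.1 CPM in the wild type. Socs3, a feedback inhibitor of cytokine signalling, stood at 87.8 against 280 CPM and 40.4 against 88.6 CPM. In other lists, Tnfaip3, a feedback inhibitor of NF-kB, stood at 451 against 462 CPM in the knockout and 201 against 52.9 CPM in the wild type. Il1rn, the secreted antagonist of the interleukin-1 receptor, stood at 86.1 against 54.0 CPM and 124 against 46.4 CPM. The intervals of Il10 included 0 in both libraries, with log2 ratios of −0.06 (−0.49 to 0.36) and 0.46 (−0.30 to 1.26).

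All 818 knockout members, paired or not, were then set beside the 202 wild-type members. Of 5257 genes 183 were at least 2-fold higher in the knockout (3.48%) and 128 lower (2.43%). The partners of the 2 libraries, 505 and 202 cells, differed in more genes, with 531 of 5306 higher (10.0%) and 256 lower (4.82%). The 2 comparisons thus rest on unlike sets of knockout cells, and the part of this in the counts was not tested. For the immediate-early list the median knockout to wild-type log2 ratio was 0.68 in members, with 2 of 19 genes past 2-fold higher, and 1.85 in partners, with 18 of 19. For Cxcl2 it was 0.37 in members and 3.33 in partners, for Klf4 0.03 and 1.79, and for Il1b −0.01 and 0.86. Members of the 2 libraries were thus nearer to each other than their partners were in these genes. For Cd163 the values were 1.79 and 1.77, and for Ccl2 2.37 and 2.57, so here both classes differed alike. Heat shock genes were lower in knockout members (median −1.25, 8 of 9 genes past 2-fold lower) and in partners (median −0.92, 3 of 9). By these values the members of the libraries were further apart in this list than the partners were. The libraries differ in depth, breeding source and genotype, which cannot be told apart.

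Transcripts of other cell types were summed in members and partners. In the knockout the 4 haemoglobin genes summed to 445 CPM in members and 17373 CPM in partners, where 4 cells held 20968 of 21557 such UMIs. Without such cells and cells with at least 3 fibroblast or endothelial UMIs the number of genes past 2-fold was 275 higher and 239 lower. Jchain, a plasma cell gene, stood at 404 against 1942 CPM in the knockout, with 1646 of 2410 partner UMIs in 1 cell, and at 109 against 812 CPM in the wild type, with 679 of 752 in 1 cell. Neutrophil genes S100a8, S100a9, Retnlg and Mmp8 and all 4 mast cell genes were at 0 in members of both libraries, while Csf3r, the fifth neutrophil gene, stood at 59.9 against 35.5 CPM in the knockout and 44.5 against 36.7 CPM in the wild type. The genes of platelets, a known source of thrombospondin-1, summed to 5.74 and 10.1 CPM. Dendritic cell markers summed to 80.4 against 36.3 CPM in the knockout, with Zbtb46, Kit, Flt3 and Itgae at 0 in members, and to 87.9 against 141 CPM in the wild type. Dpp4 (60.7 against 13.7 CPM) and Clec9a (14.8 against 6.45 CPM) gave most of the knockout sum in members. Epithelial markers summed to 139 against 64.5 CPM in the knockout and 201 against 470 CPM in the wild type, where 1 partner cell held 162 of 182 Fabp1 UMIs and 1 held 178 of 215 Fabp2 UMIs. The wild-type direction of Fabp1 and Fabp2 turned when cells were not matched, at 0.27 and 0.30. The endothelial list summed to 305 against 123 CPM in the knockout and 117 against 40.0 CPM in the wild type. Of this list, Pecam1 was at 231 against 67.7 CPM and 109 against 38.9 CPM, and Esam at 31.2 against 4.84 CPM in the knockout. Cdh5, Plvap and Egfl7 were at 0 in wild-type members and between 6.56 and 14.8 CPM in knockout members. At least 3 UMIs of the fibroblast and endothelial lists, which hold Pecam1, were found in 26 members and 16 partners of the knockout and in 10 and 2 of the wild type. Whether these transcripts have a part in the other results was not tested beyond the counts without such cells.

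The 4 motifs were counted over promoter windows of the shared genes, of which 90 of 134 higher and 44 of 60 lower genes had an entry. AP-1 was found in 7 of 90 higher genes (7.78%), 3 of 44 lower genes (6.82%), 5.59% of the 3703 compared genes and 7.82% of all 27025 genes with an entry. The E-box was found in 10 of 90 (11.1%) and in 407 of the compared genes, and in 1 of 44 lower genes. The NF-kB motif was found in 7 of 90 higher genes (7.78%) and 4 of 44 lower genes (9.09%), against 5.86% of the compared genes. CRE was found in none of the 90 or the 44, against 3.38%. A gene with several windows was counted once if any matched. The matches are a description of sequence, not of binding.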

How the data were processed

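Single-cell libraries of sorted small intestinal macrophages, 1 per genotype, were used as deposited. The deposited values are UMI counts, in whole numbers, for each gene in each cell, and per the submitters' processing notes Cell Ranger 3.0.1 and mm10 were used, with roles not stated. The calling of cells, and any scaling of depth between the wild-type lanes, are not given in the sources used here. Of the 27998 identifiers 98.7% were found in GENCODE M21 (GRCm38, the assembly of mm10), from which coordinates were taken.

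The members and the gene lists were chosen with earlier results of these data known. The filter was a minimum of 200 genes and a maximum of 10% mitochondrial UMIs, and doublets were left in the main values. Members, and cells with 0 UMIs of the 4 genes, were sorted by total UMIs within each lane. Going up in depth, each member took the first unused cell within 0.1 log2 units, without replacement. A partner was thus not always the nearest cell in depth. UMIs were summed, scaled to 1000000 (CPM) and compared as log2 ratios with 1 CPM added, for genes with a mean of at least 20 CPM. Cells of 1 library are not replicates, so there is no test and no p-value. Intervals are exact at the 95% level (Poisson, Clopper-Pearson and, for ratios of UMI sums, conditional binomial) and cover counting error only. The named genes were the 4 genes of the rule, Tnfaip2, Adamdec1, Ccr2, the 12 highest and 12 lowest ratios in each library and the genes of the lists. Values were computed with Python 3.11.15, numpy 2.4.6, scipy 1.17.1, pandas 2.3.3 and scanpy 1.11.5 (Scrublet), and the ratio and interval code was tested on simulated data. Alternatives covered the cell filter, doublets, the member threshold, lanes, genes of the rule, matching, scaling, pseudocount and the filter on low values. Some members of the lists are not reported here by name.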

Additional observations from a re-analysis of the deposited data

Results flagged for a closer look

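Of 186 genes from the lists or the named genes that could be compared in both libraries, 19 had ratios of members to depth-matched cells on opposite sides of 0 in the libraries, with counting intervals that excluded 0 in each. The difference between the libraries was not tested for any of them, and 16 of the 19 were lower in knockout members and higher in wild-type members. The values that follow are the wild-type log2 ratio minus the knockout log2 ratio.

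Among cytokine genes it was 2.94 for Cxcl2, 1.83 for Tnf, 1.61 for Ccl3 and 1.55 for Ccl4. Among immediate-early genes it was 1.86 for Klf2, 1.71 for Dusp1, 1.22 for Fos, 1.22 for Klf6, 1.16 for Jund, 1.14 for Ier5 and 0.87 for Jun. The NF-kB genes Nfkbiz and Birc3 had 1.12 and 1.04. Mt1, a metallothionein, had 0.92, Mmp9 0.72 and Hspa8, a constitutive chaperone, 0.44.

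In the other direction, higher in knockout members, were Cd74 (−0.31) and H2-Ab1 (−0.32), both of MHC class II and with small ratios in each library, and Fabp2 (−2.77), an enterocyte gene. For Fabp2 a single wild-type partner cell held 178 of 215 UMIs, and its wild-type ratio turned under 6 alternatives. The wild-type ratios of Klf2, Birc3, Nfkbiz and Cd74 changed sign when members were chosen without Thbs1, and those of Mt1 and Nfkbiz in lane 2.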

How the results depend on the processing

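No paired analysis was possible because each genotype had 1 library, and for the same reason no replicate was left out. Of 5444 single gene values under the alternatives 4711 lay within the counting interval of the reported value, 705 lay outside it and 28 that were past 2-fold changed sign, and of 647 list medians 523 were within 0.3 of the reported median, 116 were not and 8 that were past 2-fold changed sign. Another 296 gene values and 36 list medians changed sign from a reported value under 2-fold, such as Ccl8 in lane 2 (0.93) and, without Thbs1, Klf2 (−1.02), Egr1 (−0.85) and Birc3 (−0.51) in the wild type, and are not listed further. For the comparisons of genes, the rule without Thbs1, the rule without Vwa1 and the removal of other cell types were chosen after seeing the data.

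The share of members in the wild type (6.70%) was 5.63% with at least 500 genes and at most 5% mitochondrial UMIs, 1.72% with 5 UMIs and 0.2%, 4.85% in lane 2, 1.09% without Thbs1, 5.44% without Plaur, 5.37% without Pgf and 2.02% when thinned. In the knockout (31.3%) it was 13.1% with 5 UMIs and 0.2%, 16.2%, 24.5%, 27.1% and 23.9% without Thbs1, Plaur, Pgf and Vwa1, and 14.2% when thinned. Removal of the highest doublet scores took 16 of 818 knockout members and 0 of 202 wild-type members.

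Counts of genes past 2-fold in the wild type (306 higher, 139 lower) were 667 and 471 in lane 2, 802 and 477 with 5 UMIs and 0.2%, and 952 and 674 without Thbs1, where 44, 52 and 33 pairs of cells were left. They were 166 and 50 at a mean of 50 CPM, and 75 lower with a pseudocount of 10 CPM. In the knockout they were 171 higher and 108 lower at 50 CPM, and 148 lower with 10 CPM. At a matching distance of 0.05, 222 of the 306 and 83 of the 139 wild-type genes remained past 2-fold.

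The values that follow are log2 ratios, or list medians of them, that changed sign from a reported value past 2-fold, and the cause was not tested. In the wild type they were, in lane 2, Fabp1 0.057 and Gcnt2 −0.085, and with the stricter cell filter Fabp1 1.26, Fabp2 1.33 and the epithelial list 1.30. With 5 UMIs and 0.2% they were Anxa2 0.094, Fabp1 0.61, Fabp2 1.75, Jchain 0.57, Ly6a 0.31, Mki67 0.79, the plasma cell list 0.57 and the epithelial list 1.18. Unmatched, Fabp1 was 0.27, Fabp2 0.30 and the epithelial list 0.27. In C1q-positive Ccr2-negative cells Cd209a was 0.16, Fabp1 0.77, Fabp2 0.56 and the epithelial list 0.67. At a distance of 0.05 Fabp1 was 1.36, Fabp2 2.39, Hist1h1b 2.01, Mki67 0.31 and the epithelial list 1.87. Without Thbs1 Ang was 1.38, Ccl5 0.82, Cd40 −0.095, F13a1 3.05 (1 UMI against 0), Fabp1 1.37, Fabp2 1.48, Jchain 0.63, the plasma cell list 0.63 and the epithelial list 1.42. In the knockout Ccl21a was 0.58 in C1q-positive Ccr2-negative cells and 0.56 without other cell types.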
